A study of Mus musculus with 13 samples.

Results

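The genes described here are 10 core members of the Notch pathway: the receptors Notch1, Notch2 and Notch3, the ligands Dll1, Dll3 and Jag1, the receptor-modifying enzyme Lfng, and the target genes Hes1, Hes5 and Hey1. They were chosen by gene symbol, as every probe that the array platform's annotation assigns to one of these symbols. All 10 genes had a named probe, 12 probes in all, and 7 of the 10 gave signal above background on at least 3 of the 13 arrays and entered the comparisons, among 11927 genes tested. The other 3 genes, Notch2, Dll3 and Jag1, were not well above background on any array.

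The arrays came from brain tumors of high-grade glioma type in 2 mouse models and from normal brain of control mice. In the first model, Nestin-creERT2, a tamoxifen-activated Cre recombinase is under control of nestin sequences, which are active in neural stem and progenitor cells. In the second, NG2-creERTM, a tamoxifen-activated Cre is under control of NG2 sequences, which are active in oligodendrocyte progenitors and pericytes. There were 3 arrays of Nestin tumors, 4 of NG2 tumors and 3 of control brain for each model, and tumors were collected once the animals had neurological signs. Control brain was taken at the position matching the tumor. Cre deleted tumor suppressor genes in the tumor mice, but the labels name neither the deleted genes nor the alleles the control mice carried, nor the age or strain of any mouse. The design text speaks of 5 tumors for the NG2 model, and the remaining 1 is not analysed here. The labels call the tumors independent and the controls biological replicates.

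Notch receptors are membrane proteins that are switched on by ligands of the Delta-like and Jagged families on a neighbouring cell. Ligand pulling exposes the receptor to cleavage by an ADAM protease and then by gamma-secretase, and the freed intracellular domain enters the nucleus, where it joins the DNA-binding protein RBPJ and coactivators of the Mastermind family. Genes of the Hes and Hey families, which encode repressors of the basic helix-loop-helix class, are the classical targets. In the developing brain this pathway keeps radial glia and neural stem cells undifferentiated by holding back proneural factors, and in vessels it acts in endothelial and mural cells.

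All levels below are log2 intensities after background correction and normalization between arrays, and a difference of 1 on this scale is a doubling. Levels of different probes are not comparable with each other, so each gene is compared only with itself between arrays. The error after ± is the standard error of a linear model (limma) over all 13 arrays, and adjusted p is its Benjamini-Hochberg value over the 11927 genes, with a threshold of 0.05. The arrays lay on 3 slides: the first pair of tumors and the first pair of controls of the Nestin model shared slide 1, the 4 tumors and the first pair of controls of the NG2 model shared slide 2, and replicate 3 of Nestin tumor, of Nestin control and of NG2 control shared slide 3. Between 43.46% and 47.52% of probes were detected per array, and the median raw intensity ran from 175.7 to 209.1 in tumors and from 116.9 to 142.1 in controls. Tumors of one model varied more among themselves (correlation across genes 0.937 to 0.9603 between Nestin tumors and 0.9395 to 0.9545 between NG2 tumors) than controls did (0.9732 to 0.9832 over both models). Nf1, a Ras-inhibiting tumor suppressor, was not well above background in any Nestin tumor, at least 2.36-fold below Nestin control (limma adjusted p = 0.0044), and fell by 1.06 ± 0.40 in NG2 tumor (limma adjusted p = 0.0378, detected in 2 of 4 tumors). Whether that probe lies in a deleted segment is not given in the labels. The median difference over all genes was 0.061 in the Nestin comparison and 0.09 in the NG2 comparison.

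The tumors differed from control brain in their cell type markers, and in bulk tissue fewer cells of a type and less RNA per cell cannot be told apart. Of 10 measured neuronal markers 9 were lower in the tumors of each model, with a mean log2 level of 11.98 to 12.15 over all controls, 8.92 to 10.07 in Nestin tumors and 7.52 to 8.48 in NG2 tumors. Neural stem and radial glia markers had a mean of 8.16 to 8.36 in controls, 9.86 to 10.7 in Nestin tumors and 10.13 to 10.5 in NG2 tumors, with 7 of 9 higher in the Nestin comparison and 5 of 9 in the NG2 comparison. All 5 measured markers of dividing cells were higher in both models, with a mean of 5.08 to 5.75 in controls, 10.32 to 10.92 in Nestin tumors and 10.94 to 11.5 in NG2 tumors. Oligodendrocyte progenitor markers were higher for 7 of 10 genes in Nestin tumors (9.23 to 10.54, against 8.19 to 8.48 in Nestin controls) and for 9 of 10 in NG2 tumors (10.19 to 11.1, against 8.42 to 8.5). Mature oligodendrocyte markers were lower for 8 of 8 genes in Nestin tumors, and lower for 5 and higher for 2 of 8 in NG2 tumors. Astrocyte markers were lower for 8 of 10 genes in NG2 tumors (mean 8.87 to 9.36, against 10.94 to 11.14 in NG2 controls) and for 2 of 10 in Nestin tumors (10.08 to 11.37, against 10.82 to 11.05). The neuronal genes Snap25 and Nefl, classical brain markers, had probes that were detected on 0 arrays, so a probe near background on these arrays does not show that the transcript is missing.

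**Figure D1:**
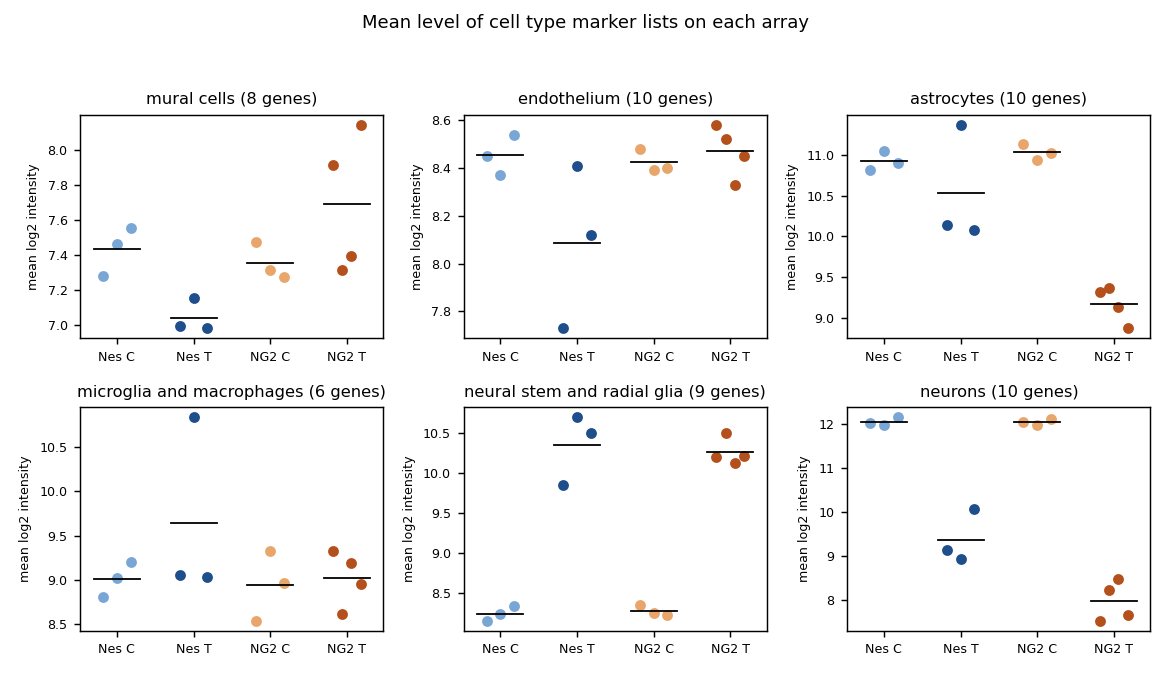
Mean log2 intensity of 6 cell type marker lists (y axis) on each of the 13 arrays, by group (x axis: Nes C, Nestin control; Nes T, Nestin tumor; NG2 C, NG2 control; NG2 T, NG2 tumor). Each point is 1 array and each black bar the group mean; neuronal markers are lower and stem and radial glia markers higher in all 7 tumors than in all 6 controls.

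Notch1 and Hes1 were the members called in both models. In the Nestin comparison, Notch1, Hes1 and Dll1 were higher in tumor; in the NG2 comparison, Notch1, Hes1 and Hey1 were higher. None of the 7 measured members was called lower in either model. Over all genes, 24.4% were called higher and 21.9% lower in the Nestin comparison, together 46.3%. In the NG2 comparison 26.6% were called higher and 24.1% lower, together 50.7%, so that 3 of 7 called members is not a share that stands out from the array as a whole. The median difference of the 7 members was 0.97 in the Nestin comparison, also with Lfng at its bound, and 0.64 in the NG2 comparison. Tumor and control arrays did not overlap for 3 of 7 members in each model, where over all genes 58.9% did not overlap in the Nestin comparison and 51.3% in the NG2 comparison.

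**Figure D2:**
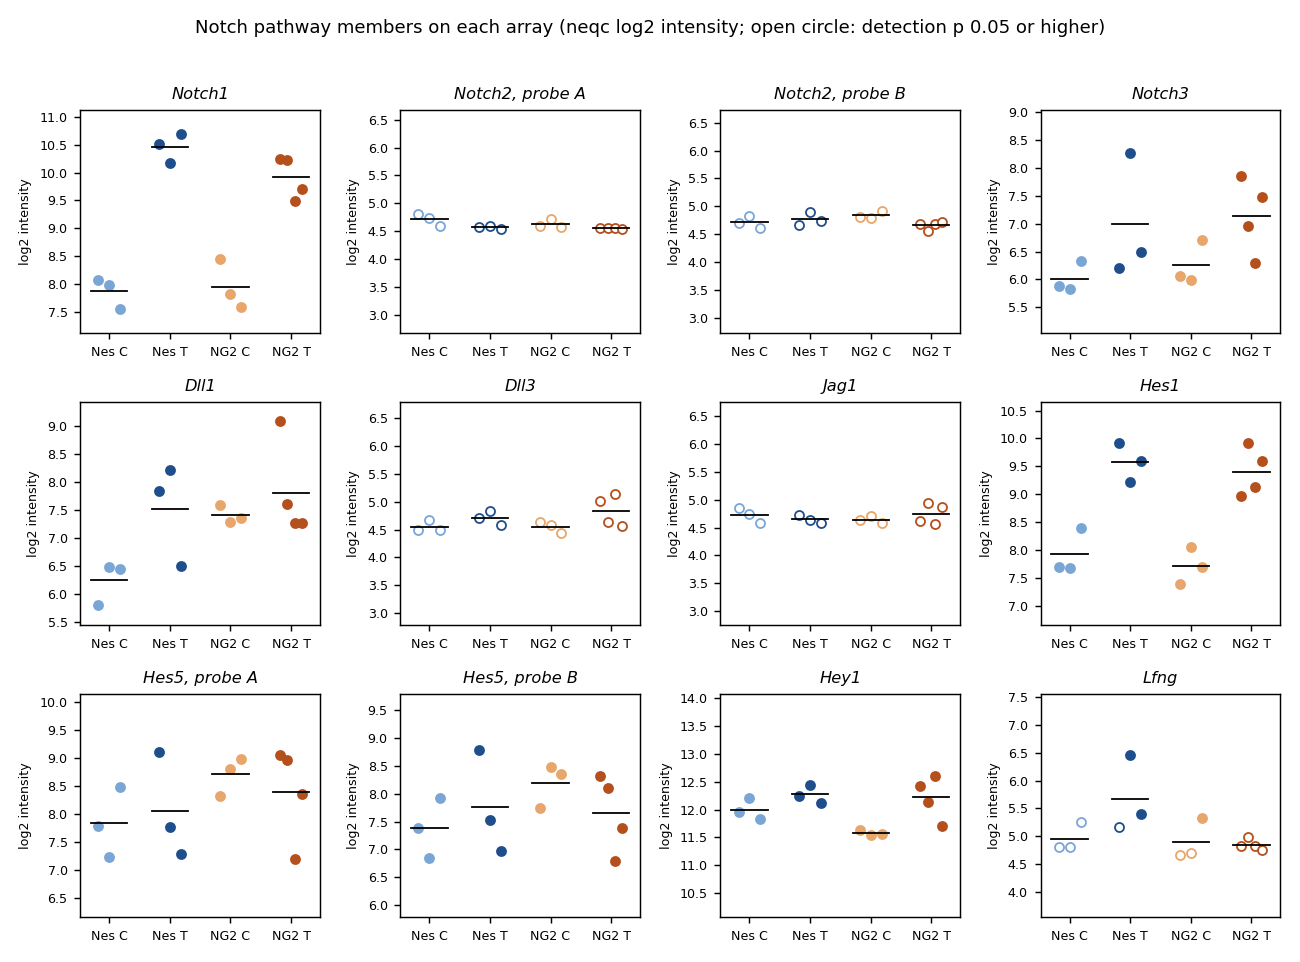
Log2 intensity (y axis) of the 12 probes of the 10 genes on each array, by group (x axis: Nes C, Nestin control; Nes T, Nestin tumor; NG2 C, NG2 control; NG2 T, NG2 tumor). Each point is 1 array, open where the detection p-value was 0.05 or higher, and bars are group means; Notch1 and Hes1 tumors lie above all controls in both models, and Notch2, Dll3 and Jag1 have open points only.

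Among the receptors, Notch1, the main Notch receptor of neural stem cells, was higher in every tumor than in every control. Its level was 10.51, 10.18 and 10.70 in Nestin tumors 1 to 3 and 8.08, 7.99 and 7.55 in Nestin controls 1 to 3. In NG2 tumors 1 to 4 it was 10.24, 10.23, 9.49 and 9.71, and in NG2 controls 1 to 3 it was 8.45, 7.83 and 7.59. The lowest tumor, NG2 tumor 3, thus lay more than 1 log2 unit above the highest control, NG2 control 1, and the 2 control groups overlapped. The Nestin difference was 2.59 ± 0.29, or 6.03-fold (95% interval 1.97 to 3.21 on the log2 scale, limma adjusted p = 1e-05). The NG2 difference was 1.96 ± 0.27, or 3.89-fold (95% interval 1.38 to 2.54, limma adjusted p = 4.31e-05). Within slides the tumor-control difference of Notch1 was 2.31 on slide 1 and 3.15 on slide 3 for the Nestin model and 1.78 on slide 2 for the NG2 model. The markers of stem and radial glia, of oligodendrocyte progenitors and of dividing cells were higher in the same tumors, and their part in the Notch1 difference was not tested.

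Notch3, a receptor best known for its role in vascular smooth muscle and pericytes, was variable among tumors and passed the threshold in neither model. Nestin tumors 1 to 3 had 6.21, 8.26 and 6.49 and Nestin controls 5.88, 5.82 and 6.33. NG2 tumors 1 to 4 had 7.85, 6.96, 6.29 and 7.47 and NG2 controls 6.06, 5.99 and 6.71. In both models 1 tumor lay within the range of its controls: Nestin tumor 1 at 6.21 and NG2 tumor 3 at 6.29. The differences were 0.97 ± 0.49 for Nestin (95% interval -0.09 to 2.04, limma adjusted p = 0.122) and 0.89 ± 0.46 for NG2 (limma adjusted p = 0.124). Single arrays decide these values: without Nestin tumor 2 the Nestin difference was 0.34, without Nestin tumor 1 it was 1.36 (limma adjusted p = 0.0492), and without NG2 tumor 3 the NG2 difference was 1.18 (limma adjusted p = 0.0496). Without Nestin tumor 2 the NG2 difference stayed at 0.89 with a limma adjusted p of 0.0418, since that array adds to the spread shared by all groups.

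The 2 NG2 tumors with the highest Notch3, tumors 1 and 4, also had the highest mean of the 8 measured mural cell markers, 7.91 and 8.14, against 7.27 to 7.47 in NG2 controls. Of these 8 markers 4 were higher and 2 lower in the NG2 comparison. In Nestin tumors the mural marker mean was 6.98 to 7.15, below the 7.28 to 7.55 of Nestin controls, with 0 markers higher and 2 lower. Nestin tumor 2, which had the highest Notch3 of all arrays, also had the highest mean of the 6 measured microglia and macrophage markers (10.83, against 9.03 to 9.06 in the other Nestin tumors and 8.54 to 9.33 in the other groups). Of these 6 markers 2 were higher and 0 lower in the Nestin comparison, while the probe of Ptprc, the general leukocyte marker CD45, was detected on 0 arrays. Nestin tumor 2 also had the highest mean of all arrays for astrocyte markers (11.37), stem and radial glia markers (10.7) and ependymal markers (8.2). The part of these cell types in the Notch3 levels was not tested.

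Notch2 has 2 probes, with levels from 4.54 to 4.81 and from 4.55 to 4.91 over the 13 arrays and detection p-values no lower than 0.30 and 0.19. Both lay below the lowest detected level of an array, which ran from 5.29 to 5.53, so no difference between groups can be read for Notch2. The fourth mammalian receptor, Notch4, which is known from endothelium and is not one of the 10 genes, had a difference of 1.35 ± 0.27 in the Nestin comparison (limma adjusted p = 0.00114). In the NG2 comparison its difference of 0.63 ± 0.26 missed the threshold (limma adjusted p = 0.0535), and the gap between the models was not past it either (-0.72 ± 0.37, limma adjusted p = 0.325). Of 10 measured endothelial markers 1 was higher and 1 lower in the Nestin comparison, with a mean of 7.73 to 8.41 in Nestin tumors and 8.37 to 8.54 in Nestin controls. In the NG2 comparison 4 were higher and 3 lower, with a mean of 8.33 to 8.58 in tumors and 8.39 to 8.48 in controls, and their part in the Notch4 levels was not tested.

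Of the ligands, Dll1, which neuronal progenitors use to signal to their neighbours, was the only measured member. It reached 7.85 and 8.21 in Nestin tumors 1 and 2 but 6.49 in Nestin tumor 3, beside 5.79, 6.48 and 6.44 in Nestin controls. In NG2 tumors 1 to 4 it was 9.09, 7.61, 7.26 and 7.26, and in NG2 controls 7.59, 7.28 and 7.35. Nestin tumor 3 was thus barely above its highest control, and NG2 tumors 3 and 4 were below all 3 of theirs. The Nestin difference was 1.28 ± 0.50, or 2.43-fold (95% interval 0.21 to 2.34), and just passed (limma adjusted p = 0.0481). The NG2 difference was 0.40 ± 0.46 (limma adjusted p = 0.497), and -0.03 without NG2 tumor 1.

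The Nestin call for Dll1 was not stable. It was lost in 15 of 27 alternative settings, among them slide as a fixed block (limma adjusted p = 0.0654), and when any one of 9 arrays was left out: Nestin tumors 1 and 2, all 3 Nestin controls, NG2 tumor 2 and all 3 NG2 controls. Over all 13 arrays left out in turn the difference ran from 0.93 without Nestin tumor 2 to 1.79, with limma adjusted p from 0.00902 to 0.172. Within slide 1 the difference was 1.89 and within slide 3, with 1 tumor and 1 control, 0.05. The 2 control groups did not overlap for Dll1, NG2 control being 1.17 ± 0.50 above Nestin control, but that difference did not pass over all genes (unadjusted p = 0.0336, limma adjusted p = 0.311).

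Dll3, a divergent Delta-like ligand that in human glioma marks proneural tumors, and Jag1, a Jagged ligand of glia and vessels, were detected on 0 of 13 arrays. Their levels ran from 4.44 to 5.14 and from 4.57 to 4.94, with lowest detection p-values of 0.10 and 0.21. Of the further ligands on the pathway list, Dlk1, a non-canonical ligand that lacks the Delta-Serrate-Lag2 domain, had the widest separation. It was 9.21, 9.82 and 9.40 in Nestin tumors and not well above background in Nestin controls, at least 16.7-fold higher (limma adjusted p = 9.7e-05). In NG2 tumors it was 11.48, 12.27, 9.28 and 10.75, against 5.29, 7.09 and 6.80 in NG2 controls, a difference of 4.55 ± 0.57 (limma adjusted p = 1.82e-05). Dner, a neuronal ligand, fell by 2.56 ± 0.61 in NG2 tumor (limma adjusted p = 0.00308) and differed by 0.03 ± 0.65 in the Nestin comparison (limma adjusted p = 0.977). The gap between these Dner differences was -2.59 ± 0.89 and did not pass (limma adjusted p = 0.128).

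Lfng, a Fringe enzyme that adds sugar to Notch receptors and thereby shifts their response from Jagged to Delta-like ligands, lay at the edge of detection. Nestin tumors had 5.17, 6.45 and 5.40, Nestin controls 4.81, 4.80 and 5.25, NG2 tumors 4.83, 4.98, 4.82 and 4.75, and NG2 controls 4.66, 4.70 and 5.33. It was detected only in Nestin tumors 2 and 3 and in NG2 control 3, the minimum of 3 arrays that admitted it to the fit. As it was not well above background in any Nestin control, the mean of Nestin tumors is given as at least 1.2-fold higher, sampling error aside. Nestin tumor 1, itself not detected, lay below Nestin control 3. The Nestin comparison missed the threshold (limma adjusted p = 0.0581) and passed without Nestin tumor 1 (limma adjusted p = 0.019) or without Nestin control 3 (limma adjusted p = 0.0498). In the NG2 model Lfng was not well above background in any tumor and in all but 1 control, so no size of difference is given (limma adjusted p = 0.894). Of the other Fringe genes, Rfng fell by 1.05 ± 0.28 in NG2 tumor (limma adjusted p = 0.00598). Mfng, which is best known from blood cells, was at least 1.69-fold higher there by group means (limma adjusted p = 0.0455), a call lost in 18 of 26 alternative settings. It was detected in 2 of 4 NG2 tumors and 0 NG2 controls. Its tumors (7.49, 5.32, 6.29 and 5.41) overlapped its controls (5.38, 4.95 and 4.95). Of the 4 measured glycosylation genes, Lfng included, Rfng and Mfng were the only ones called, both in the NG2 comparison, where 50.7% of all genes were called. Nestin tumor 2 was the array with the highest Lfng. As given above, it also had the highest marker means of microglia and macrophages, astrocytes, stem and radial glia, and ependyma. The part of these cells in the Lfng level was not tested.

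Of the 3 target genes, Hes1, the most general Notch-responsive repressor, which is also driven by other signals, was higher in all 7 tumors than in all 6 controls. Nestin tumors had 9.92, 9.22 and 9.60 and Nestin controls 7.70, 7.68 and 8.39. NG2 tumors had 8.97, 9.92, 9.13 and 9.60 and NG2 controls 7.39, 8.06 and 7.70. The lowest tumor, NG2 tumor 1 at 8.97, lay above the highest control, Nestin control 3 at 8.39. The difference was 1.66 ± 0.31, or 3.16-fold, in the Nestin comparison (95% interval 0.98 to 2.33, limma adjusted p = 0.000717) and 1.69 ± 0.29, or 3.22-fold, in the NG2 comparison (limma adjusted p = 0.000304). Within slides it was 1.88 and 1.22 for Nestin and 1.68 for NG2. The same marker lists were higher in the same tumors as for Notch1, and their part in the Hes1 difference was not tested either.

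Hes5, which in the brain depends closely on Notch and is high in radial glia, did not follow Hes1. Its level was 9.11, 7.76 and 7.28 in Nestin tumors and 7.79, 7.22 and 8.49 in Nestin controls, and 9.05, 8.97, 7.20 and 8.35 in NG2 tumors and 8.33, 8.81 and 8.99 in NG2 controls. Tumors and controls overlapped in both models, and tumors of one model spanned more than a log2 unit. The differences were 0.22 ± 0.53 for Nestin (95% interval -0.92 to 1.36, limma adjusted p = 0.766) and -0.32 ± 0.50 for NG2 (95% interval -1.39 to 0.75, limma adjusted p = 0.616). These intervals still hold a rise of more than a doubling in Nestin tumor and a fall of that size in NG2 tumor. The second Hes5 probe gave 0.37 ± 0.48 (limma adjusted p over probes 0.564) and -0.55 ± 0.45 (limma adjusted p over probes 0.331).

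Hey1, a target found in neural progenitors and in endothelium, was 12.25, 12.44 and 12.12 in Nestin tumors and 11.95, 12.20 and 11.83 in Nestin controls, with overlap. In NG2 tumors it was 12.42, 12.13, 12.61 and 11.71, all above NG2 controls at 11.63, 11.54 and 11.56. The NG2 difference was 0.64 ± 0.20, or 1.56-fold (95% interval 0.21 to 1.07, limma adjusted p = 0.0157). With slide as a fixed block it was 0.63 with a limma adjusted p of 0.0511, and within slide 2 alone 0.63 with a limma adjusted p of 0.107. The Nestin difference was 0.28 ± 0.21 (95% interval -0.18 to 0.74, limma adjusted p = 0.302). The 2 control groups did not overlap, with a difference of -0.42 ± 0.21 for NG2 control minus Nestin control (limma adjusted p = 0.45), whereas the tumors of the 2 models differed by -0.06 (limma adjusted p = 0.898).

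**Figure D3:**
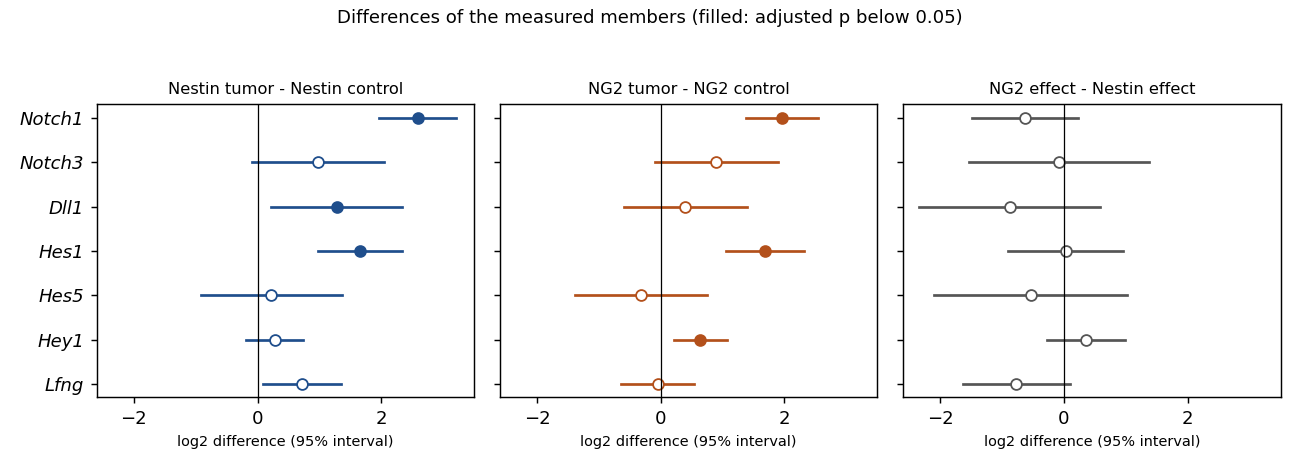
Log2 differences with 95% intervals (x axis) of the 7 measured members (y axis) for Nestin tumor minus Nestin control, NG2 tumor minus NG2 control, and the NG2 difference minus the Nestin difference. Filled points have a limma adjusted p below 0.05; Notch1 and Hes1 are filled in both models, Dll1 only for Nestin, Hey1 only for NG2, and none in the third panel. The Lfng points are fitted values near background.

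Promoter windows are shown for Notch1, whose level differed in both models, for Hes5 and Lfng, the only members whose windows hold an RBPJ core motif, and for Dll1, with a motif for Hes-type repressors. Each window runs from 250 bases before to 50 bases after the gene's annotated start, 5′ to 3′ on the gene's strand, from RefSeq on GRCm38.p6. The table matched 8 of the 10 genes with 9 windows, 2 of them for Dll1; Hes1 and Hey1 were not matched. Capitals mark the 7-base RBPJ core GTGGGAA on either strand (TTCCCAC where it lies on the other strand) and the 6-base palindromic E-box CAGCTG. The windows are Notch1 at chr2:26503773-26504072 (minus strand), Hes5 at chr4:154960673-154960972 (plus strand), Lfng at chr5:140607091-140607390 (plus strand) and Dll1 at chr17:15376883-15377182 (minus strand).
Notch1: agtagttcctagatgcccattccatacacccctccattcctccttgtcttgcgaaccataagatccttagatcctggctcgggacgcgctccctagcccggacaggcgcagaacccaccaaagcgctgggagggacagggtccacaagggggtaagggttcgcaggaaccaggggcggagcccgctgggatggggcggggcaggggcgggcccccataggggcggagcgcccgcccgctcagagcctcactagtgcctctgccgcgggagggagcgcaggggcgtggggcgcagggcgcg
Hes5: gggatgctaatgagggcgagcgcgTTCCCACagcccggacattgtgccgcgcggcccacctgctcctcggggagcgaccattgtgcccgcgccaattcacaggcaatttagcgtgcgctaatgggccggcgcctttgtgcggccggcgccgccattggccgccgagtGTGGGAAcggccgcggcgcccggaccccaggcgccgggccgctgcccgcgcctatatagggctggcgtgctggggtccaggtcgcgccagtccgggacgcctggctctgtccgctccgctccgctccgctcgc
Lfng: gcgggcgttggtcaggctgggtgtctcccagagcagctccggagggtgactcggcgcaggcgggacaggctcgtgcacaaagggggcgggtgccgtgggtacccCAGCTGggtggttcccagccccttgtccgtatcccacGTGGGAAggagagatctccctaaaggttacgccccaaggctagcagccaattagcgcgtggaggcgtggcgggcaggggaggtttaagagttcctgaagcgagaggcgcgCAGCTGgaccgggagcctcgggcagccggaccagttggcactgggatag
Dll1: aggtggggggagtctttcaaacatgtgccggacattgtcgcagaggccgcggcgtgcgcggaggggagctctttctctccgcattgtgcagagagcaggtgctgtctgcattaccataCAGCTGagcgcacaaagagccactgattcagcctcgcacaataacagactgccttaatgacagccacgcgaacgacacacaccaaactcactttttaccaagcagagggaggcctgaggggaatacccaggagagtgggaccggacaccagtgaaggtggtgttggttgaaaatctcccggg

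The Hes5 window holds 2 RBPJ cores, beginning at position -83 on the gene's strand and at position -226 on the opposite strand. Hes5 did not pass the threshold in either model. The Lfng window holds 1 core at position -109 and 2 E-boxes at positions -146 and 2, and the Dll1 window shown holds 1 E-box at position -132. Single E-boxes were also found in the Dll3 window at position -7 and in the Jag1 window at position -82, and neither motif in the windows of Notch1, Notch2 and Notch3 or in the other Dll1 window. Over all windows of this length the core occurred in 2097 of 32851 (6.38%) and the E-box in 5355 (16.3%). A match is a description of these letters only.

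The direct test of whether the tumor-control differences depended on the model called 0 of 7 members, where 3.8% of all genes were called (1.33% higher and 2.46% lower in the NG2 model). At an unadjusted p under 0.05 it gave 0 of 7 members, and the share of all genes at that cutoff is not given here. For Notch1 the NG2 difference minus the Nestin difference was -0.63 ± 0.40 (95% interval -1.49 to 0.22, limma adjusted p = 0.429). For Hes1 the gap was 0.03 ± 0.43 (95% interval -0.90 to 0.95, limma adjusted p = 0.98), so a gap of up to nearly a doubling is within the error. The Dll1 gap was -0.88 ± 0.68 (limma adjusted p = 0.534) and the Hey1 gap 0.36 ± 0.29 (limma adjusted p = 0.558), so neither gene was shown to differ between the models although each passed in 1 of them. The gaps of Notch3 and Hes5 were -0.08 ± 0.68 and -0.54 ± 0.73, with limma adjusted p of 0.964 and 0.749. For Lfng, near background in 3 of the 4 groups, no size of gap is given (limma adjusted p = 0.327).

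Tumors of the 2 models compared directly also gave 0 of 7 members, against 8.99% of all genes (3.45% higher and 5.54% lower in NG2 tumor). At an unadjusted p under 0.05 the count was 1 of 7, Lfng (limma unadjusted p = 0.00955). The share of all genes at that cutoff is not given, so the count cannot be set against the array as a whole. No slide held tumors of both models, so slide and model are hard to separate there. Lfng, not well above background in any NG2 tumor and detected in 2 of 3 Nestin tumors, was at least 1.16-fold lower in NG2 tumor, short of the threshold (limma adjusted p = 0.0785). Its limma adjusted p was 0.0388 without Nestin tumor 1 and 0.948 with slide as a fixed block. Notch1 differed by -0.55 (limma adjusted p = 0.228) and Hes1 by -0.18 (limma adjusted p = 0.763). Between the control groups 0 of 7 members were called, against 3.47% of all genes. The count at an unadjusted p under 0.05 was 1 of 7, Dll1 (limma unadjusted p = 0.0336), again without a share of all genes.

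Around the 10 genes, 72 further pathway genes were listed by role, and 46 of them were measured, while 15 had probes that failed the signal filter and 11 had no named probe used here. In the Nestin comparison 11 of the 46 were higher, 9 lower and 26 not called, with a median of 0.08. In the NG2 comparison 12 were higher, 15 lower and 19 not called, with a median of 0.14. Both shares lie near the background given above. Of the genes higher in the Nestin comparison 7 of 11 (63.6%) were also higher in the NG2 comparison (58.3% of its 12), and of those lower 7 of 9 (77.8%) were also lower (46.7% of 15). RBPJ's own gene, Rbpj, and Adam10, the protease of the ligand-induced cut, had probes detected on 0 arrays.

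**Figure D4:**
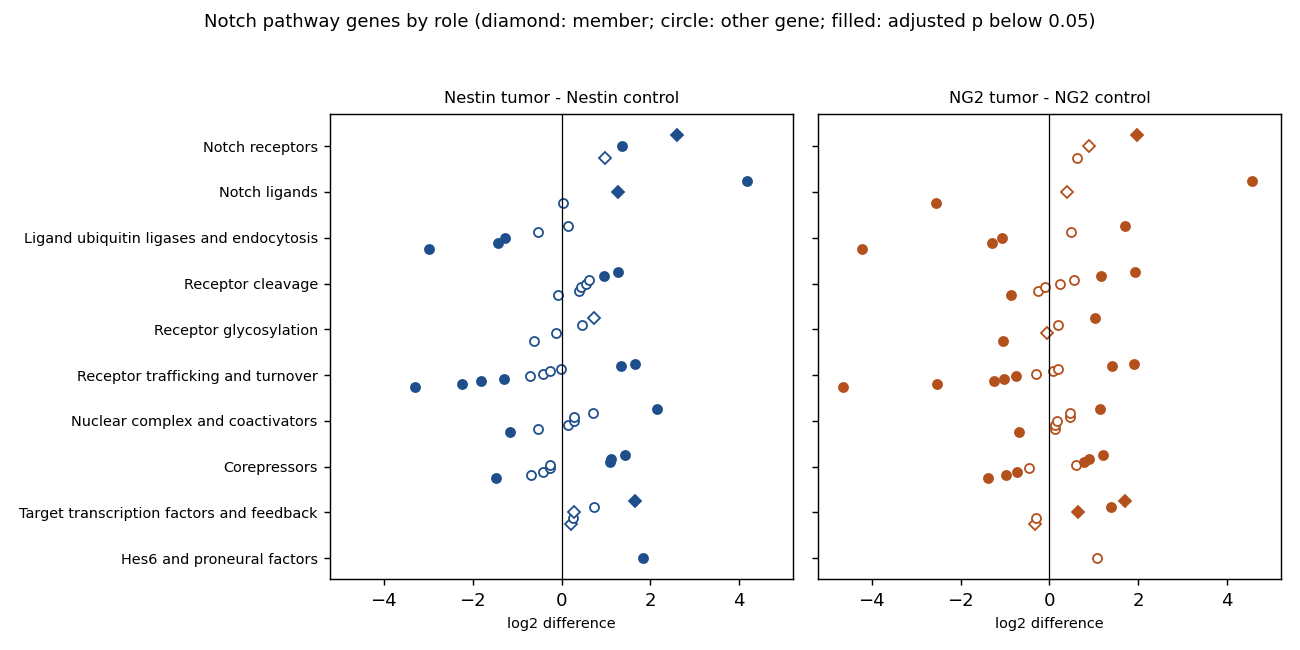
Log2 differences (x axis) of every measured Notch pathway gene, grouped by role (y axis), for Nestin tumor minus Nestin control and NG2 tumor minus NG2 control. Diamonds are members and circles other pathway genes, filled where the limma adjusted p is below 0.05; filled points lie on both sides of 0 in both panels.

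Of 5 measured genes that ready ligands for signalling, 3 were lower and 0 higher in the Nestin comparison and 3 lower and 1 higher in the NG2 comparison, where 21.9% and 24.1% of all genes were lower. Neurl1a, a ubiquitin ligase of neurons, fell by 2.99 ± 0.55 in Nestin tumor and fell by 4.23 ± 0.52 in NG2 tumor (limma adjusted p = 0.000616 and 1.45e-05). Mib2 fell by 1.27 ± 0.22 in Nestin tumor and fell by 1.07 ± 0.20 in NG2 tumor (limma adjusted p = 0.00031 and 0.000564). Mib1, the main ligase for Notch ligands, was higher by 1.69 ± 0.34 in NG2 tumor (limma adjusted p = 0.00101) and differed by 0.15 ± 0.37 in Nestin tumor (limma adjusted p = 0.767). Neuronal markers fell in the same tumors, and their part in these falls was not tested.

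Of 7 measured cleavage genes, 2 were higher and 0 lower in the Nestin comparison and 2 higher and 1 lower in the NG2 comparison. Of all genes 24.4% were higher and 21.9% lower in the former, and 26.6% and 24.1% in the latter. Adam17, a shedding protease, was higher by 1.26 ± 0.23 and 1.93 ± 0.22 (limma adjusted p = 0.000607 and 6.76e-06), though the mean of all its probes gave 0.73 for Nestin (limma adjusted p = 0.226). Among gamma-secretase subunits, Psenen was higher in Nestin tumor by 0.95 ± 0.32 (limma adjusted p = 0.0235). That call was lost without Nestin tumor 2, Nestin tumor 3 or Nestin control 2, with 0.60 (limma adjusted p = 0.125) without the last, and within slide 1 (limma adjusted p = 0.134). Ncstn was higher in NG2 tumor by 1.17 ± 0.23 (limma adjusted p = 0.000743) and Aph1b fell by 0.86 ± 0.23 there (limma adjusted p = 0.00654). The Aph1b call was lost in 3 of 27 alternative settings, with differences from -0.99 to -0.27 and limma adjusted p up to 0.435.

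Genes of receptor trafficking and turnover were lower for 4 and higher for 2 of 10 in the Nestin comparison, and lower for 5 and higher for 2 in the NG2 comparison. Over all genes the shares lower were 21.9% and 24.1%, and the shares higher 24.4% and 26.6%. Fbxw7, the ubiquitin ligase subunit that marks the active Notch fragment for destruction, fell by 2.25 ± 0.23 in Nestin tumor and fell by 2.54 ± 0.21 in NG2 tumor (limma adjusted p = 3.98e-06 and 3.95e-07). Aak1, an endocytic kinase that binds active Notch, fell by 3.29 ± 0.50 and fell by 4.64 ± 0.47 (limma adjusted p = 0.00014 and 2.44e-06). Numb, a Notch inhibitor that is inherited unequally by dividing neural precursors of the fly, fell by 1.81 ± 0.29 in Nestin tumor and fell by 1.03 ± 0.27 in NG2 tumor (limma adjusted p = 0.000191 and 0.00605). Dtx3l, a Deltex relative, was higher by 1.34 ± 0.40 and 1.91 ± 0.37 (limma adjusted p = 0.014 and 0.000751). Most neuronal and most mature oligodendrocyte markers were lower in the same tumors, and their part in the falls of Fbxw7, Aak1 and Numb was not tested.

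In the nucleus, 1 of 7 measured genes of the RBPJ complex and its coactivators was higher and 1 lower in each model. Beside this and the corepressor counts below, 24.4% of all genes were higher and 21.9% lower for Nestin, and 26.6% and 24.1% for NG2. The coactivator gene Maml2 was higher in both models, by 2.15 ± 0.26 and 1.14 ± 0.24 (limma adjusted p = 1.65e-05 and 0.00123). Its levels were 10.71, 10.55 and 10.61 in Nestin tumors against 8.62, 8.50 and 8.30 in Nestin controls, and 10.87, 11.11, 10.20 and 10.26 in NG2 tumors against 9.49, 9.19 and 9.72 in NG2 controls. Between the control groups Maml2 was higher in NG2 control by 0.99 ± 0.26 (limma adjusted p = 0.0489), a call lost in 19 of 24 alternative settings. Of 8 measured corepressors 3 were higher and 1 lower in the Nestin comparison and 3 higher and 3 lower in the NG2 comparison. Tle4, of the Groucho family, fell by 1.48 ± 0.30 and fell by 1.38 ± 0.28 (limma adjusted p = 0.00125 and 0.00108). Hdac2, a histone deacetylase, was higher by 1.12 ± 0.20 and 1.20 ± 0.19 (limma adjusted p = 0.000429 and 0.000113), calls that the mean of all its probes did not keep (0.45 and 0.46, limma adjusted p = 0.159 and 0.119).

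Of 5 measured target and feedback genes, members included, 1 was higher in Nestin tumor, 3 were higher in NG2 tumor and 0 were lower in either. Among all genes 24.4% and 26.6% were higher and 21.9% and 24.1% lower. Hey2, a relative of Hey1, was the target gene that separated the 2 models' tumors. Its level was 6.66, 5.50 and 5.74 in Nestin tumors and 5.69, 5.85 and 5.60 in Nestin controls. In NG2 tumors it was 9.44, 7.65, 9.66 and 9.32, and in NG2 controls 7.52, 6.84 and 8.56. All 4 NG2 tumors lay above all 3 Nestin tumors, and all NG2 controls above all Nestin controls. NG2 tumor exceeded Nestin tumor by 3.05 ± 0.49, or 8.29-fold (limma adjusted p = 0.00259), while the control groups differed by 1.92 ± 0.52 (limma adjusted p = 0.0663). No slide held tumors of both models, and with slide as a fixed block the tumor difference was 4.6 (limma adjusted p = 0.227). NG2 tumor exceeded NG2 control by 1.38 ± 0.49 (limma adjusted p = 0.0298), with overlap. That call was lost without any one of NG2 tumor 1, 3 or 4 or NG2 control 1 or 2, with 0.98 and a limma adjusted p of 0.151 without NG2 control 2. Hey2 differed by 0.25 ± 0.52 in the Nestin comparison, and the gap between the models' tumor-control differences did not pass (1.13 ± 0.72, limma adjusted p = 0.435).

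Nrarp, a feedback inhibitor that is induced by Notch, differed by 0.73 ± 0.34 in the Nestin comparison (limma adjusted p = 0.0903) and by -0.31 ± 0.31 in the NG2 comparison (limma adjusted p = 0.437). Hes6, which counters Hes1 and favours neuronal differentiation, was 10.33, 10.48 and 10.24 in Nestin tumors and 8.40, 8.21 and 8.93 in Nestin controls, higher by 1.84 ± 0.47 (limma adjusted p = 0.00519). In the NG2 comparison its difference of 1.08 ± 0.44 narrowly missed the threshold (limma adjusted p = 0.0526). Only Hes6 was measured of the 8 genes listed with the proneural factors, and the neurogenins and Neurod genes had probes that failed the filter.

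Between the tumors of the 2 models 5 of the 46 further pathway genes were higher and 2 lower in NG2 tumor, against 3.45% and 5.54% of all genes. Beside Hey2, the corepressor gene Tle1 was higher by 0.97 ± 0.25 (limma adjusted p = 0.0292) and Aak1 lower, with a difference of -1.66 ± 0.47 (limma adjusted p = 0.0437). With each array left out in turn the Tle1 call held in 9 of 13 fits, with 0.69 (limma adjusted p = 0.105) without Nestin tumor 2, and the Aak1 call in 2 of 13, with a limma adjusted p of up to 0.143. With slide as a fixed block 0 of all genes passed in this comparison. Between the control groups 2 of the 46 further pathway genes were higher in NG2 control and 1 was lower, against 1.78% and 1.69% of all genes. The higher ones were Maml2 and the corepressor gene Ctbp2 (1.06 ± 0.27, limma adjusted p = 0.0463), and the lower one the Deltex gene Dtx4 (-1.09 ± 0.28, limma adjusted p = 0.0489). These control calls were not stable: with each of the 13 arrays left out in turn, Maml2 kept its call in 3 fits, Ctbp2 in 2 and Dtx4 in 3, with limma adjusted p of up to 0.234, 0.243 and 0.179.

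The genes whose levels followed a member most closely over the 13 arrays were found by Pearson's correlation among all 11927 genes. These are descriptions over arrays that share tumor and control groups. Notch1 was closest to Socs3, a feedback inhibitor of cytokine signalling (r = 0.981), Itpripl1 (0.975) and the isoleucyl-tRNA synthetase gene Iars (0.975). Hes1 was closest to Ngdn (0.979), the DNA repair endonuclease gene Apex1 (0.969) and the Ran-binding gene Ranbp1 (0.966). For Notch3 the closest were Ccdc102a (0.91), Tspan32 (0.909) and Il3ra (0.907), and for Hey1 Gmip (0.927), Smim7 (0.87) and Slc29a3 (0.87). Dll1 and Hes5 had no gene above 0.847 and 0.742. Lfng was closest to the B-cell receptor gene Cd79b (0.913), Grifin (0.912) and the myeloid gene Cd33 (0.89), but without Nestin tumor 2 these fell to 0.669, 0.624 and 0.659.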

How the data were processed

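The labels describe total RNA from flash-frozen tissue, labelled with biotin and hybridised to Illumina mouse BeadChips of 45281 probes. The authors deposited non-normalized intensity values, each paired, per the file headers, with a detection p-value. Whether the scanner subtracted background is unknown. The authors also deposited processed values, taken as log2 from their range (column medians 5.286 to 5.306), with method and centring not given in the sources used here, which served as an alternative only. On each array they correlated at 0.999985 or above with the values used here.

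Intensities were processed with neqc of limma 3.58.1 in R 4.3.3 (background from detection p-values, offset 16, quantile normalization, log2). Probes with detection p below 0.05 on at least 3 arrays were kept (23904). The platform annotation gave 32093 probes 1 symbol and 16 several, which were not used, and left 13172 unnamed. By Entrez number 32035 matched RefSeq's GRCm38.p6 table. The probe with the highest mean stood for a gene (11927 genes).

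The limma model had a mean for each of the 4 groups and used all 13 arrays (9 residual and 4.666 prior degrees of freedom, intensity trend), with Benjamini-Hochberg adjustment over all genes of a comparison. It was tested on simulated data. The number of arrays limits the precision. A gene not detected on any array of a group is given as a bound against the lowest detected level. That bound uses the mean of the other group and does not include its sampling error. Fitted values of Lfng stand only in a plot and among the alternatives. Slides were read from array identifiers in the intensity table's header. Same-numbered tumor and control arrays showed no shared deviation (correlations -0.0309 to 0.0351 for Nestin and -0.0589 to -0.0358 for NG2). With so few arrays per group this cannot exclude that the numbers pair samples. The sample titles letter the NG2 tumors in another order, and NG2 tumor 4 was not in this check. Genes named beyond the 10 were, per role and comparison, up to 3 called genes with the largest difference, Nf1, and the 3 genes most correlated with each member; values of genes named once are also given elsewhere, and Nrarp, Snap25, Nefl, Rbpj and Adam10 were added after their values were seen. The members and lists were chosen with earlier results of these data known. Alternatives covered background correction, normalization, filter, choice of probe, slide, replicate number, groups in the fit and leaving out each array.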

Additional observations from a re-analysis of the deposited data

Results flagged for a closer look

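In the NG2 tumor group of 4 arrays, 1 array lay far from the others for 3 of 37 probes or genes examined, by the gap to its nearest neighbour as a share of the group's range, set against Dixon's 95% critical value for 4 arrays. These were Kat2a, an acetyltransferase of the Notch nuclear complex (ratio 0.839, NG2 tumor 2 low at 9.23), the corepressor gene Ctbp2 (0.862, NG2 tumor 3 low at 7.82) and Hey2 (0.831, NG2 tumor 2 low at 7.65). Chance gives such a gap in about 1 of 20 groups.

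Of the 46 further pathway genes, 2 were called for a tumor-control difference that depended on the model, against 3.8% of all genes. Sel1l, which works in protein quality control of the endoplasmic reticulum, fell by 1.30 ± 0.25 in Nestin tumor and differed by 0.20 ± 0.24 in the NG2 comparison, a gap of 1.49 ± 0.35 (limma adjusted p = 0.0307). Kat2a fell by 1.17 ± 0.22 in Nestin tumor and differed by 0.12 ± 0.21 in the NG2 comparison, a gap of 1.28 ± 0.30 (limma adjusted p = 0.0318). With slide as a fixed block the gaps were 1.39 and 1.22, with limma adjusted p of 0.11 and 0.10, and leaving out single arrays kept the call in 6 of 13 fits for Sel1l and 4 of 13 for Kat2a. The mean of all its probes gave a Sel1l gap of 0.97 (limma adjusted p = 0.0565).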

How the results depend on the processing

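Notch1 and Hes1 kept their calls in both models in all 27 alternatives, with Nestin differences of 2.04 to 3.13 and 1.23 to 2.20 and NG2 differences of 1.5 to 2.49 and 1.22 to 2.20. These alternatives are not independent. The authors' processed values nearly repeat the main ones, and leaving out an array of the other model cannot change a tumor-control difference, only its error. Dll1 (Nestin) lost its call without background correction (0.63), with normexp at an offset of 50 (0.97), under cyclic loess (1.17), and with no filter or either slide block (1.28). Hey1 passed in the Nestin comparison under median scaling (0.79, limma adjusted p = 0.0118), as did Notch3 in the NG2 comparison (1.20, 0.0456), and Lfng passed in the Nestin comparison under cyclic loess (0.77, 0.0471). Median scaling moved the median of all genes to 0.451 (Nestin) and 0.467 (NG2) and the share of calls that were higher from 52.6% to 72.9% and from 52.4% to 71.8%. For the difference of effects, 453 called genes became 184 with slide as a fixed block, and 237 to 631 with 1 array left out. Between tumors, 1072 became 0 with slide fixed and 1936 with slide random, and 676 to 1254 with 1 array left out, and called members were 1 under cyclic loess, 1 with slide random and 0 to 1 with 1 array left out. Between controls, 414 became 218 under the stricter filter and 85 with slide fixed, and 239 to 447 with 1 array left out. Uncalled members changed sign: Hes5 in the NG2 comparison under median scaling (0.23); with slide fixed, Lfng in the NG2 comparison (0.17, also within slide 2), the Notch3 gap between models (0.15), Hey1 between tumors (0.08), and Notch1 (-0.23) and Lfng (0.36) between controls; and the Hes1 gap without background correction (-0.01) and under cyclic loess (-0.08). With 1 array left out the uncalled values that changed sign ran from -0.31 to 0.60 for Hes5 (Nestin), from -0.03 to 0.58 for Dll1, -0.54 to 0.08 for Hes5 and -0.17 to 0.17 for Lfng (NG2), from -0.47 to 0.55 for Notch3 and -0.20 to 0.20 for Hes1 (gap), from -0.23 to 0.80 for Notch3, -0.22 to 0.64 for Dll1, -0.04 to 0.87 for Hes5 and -0.19 to 0.11 for Hey1 (tumors), and from -0.16 to 0.27 for Notch1, -0.37 to 0.03 for Hes1 and -0.27 to 0.09 for Lfng (controls). The causes were not tested. With the replicate number as a replicate block, 3 members stayed called in each model (Notch1 2.59 and 2.03, Hes1 1.66 and 1.62) and 5491 and 4869 genes. Signal over background limits Notch2, Dll3 and Jag1, which were not fitted, and Lfng, whose values here are fitted near background.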
